A study of Sus scrofa with 12 samples.

Results

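The expression of 10 genes of the transforming growth factor beta (TGF-β) pathway was followed in porcine aortic valvular interstitial cells (VICs), the fibroblast-like cells inside the heart valve leaflet. The members were PMEPA1, BAMBI, TGIF1, KLF10, SNAI1, BHLHE40, TGFB1, TGFBR1, SMAD3 and CDKN1A, and every probe set that carried 1 of these symbols alone in the platform annotation was taken. These were 21 of 23999 probe sets on the array, for all 10 genes, out of 6765 genes that had such a probe set. They were chosen by name and not by their values, but with earlier results from the same arrays known. Cells came from adult pigs and were released from the valve with collagenase II. Freshly isolated cells that had never been cultured formed the P0 group. The P2 groups came after 2 passages on polystyrene dishes (TCPS), in a low-serum medium, and all were harvested on day 3 of the experiment. One P2 group had no TGF-β1, and the other two were given the porcine protein (5 ng/ml), with exposures of 8 h and 24 h. Each of the 4 groups held 3 biological replicates, 12 arrays in all, and whether a replicate was 1 pig or a pool is not given in the sources used here. P0 cells had not been exposed to plastic or low serum, so passage, plastic and serum cannot be told apart between P0 and P2.

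TGF-β is secreted in a latent form and, once active, binds a type II receptor that recruits and phosphorylates the type I receptor. The type I receptor phosphorylates SMAD2 and SMAD3, which join SMAD4 and act on genes in the nucleus. Several of the induced genes encode inhibitors of the same pathway, so that the signal limits itself. In the valve, TGF-β is known for turning interstitial cells into contractile, matrix-producing myofibroblasts.

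Values are log2 expression per probe set as deposited, on which 1 unit is a 2-fold difference. They are comparable for 1 probe set between arrays, and not between probe sets or genes. Levels ran from 1.74 to 15.95, and the reporter control probe sets, which stand for background, had a 95th percentile of 4.58. Where a gene had several probe sets, the brightest by mean over the 12 arrays stood for it. Group means were compared with limma, and a change was called at a Benjamini-Hochberg adjusted p under 0.05 over 17638 probe sets tested. Errors of fold changes are standard errors (SE) with 3 against 3 arrays, and background percentages refer to 6014 genes with a tested representative. Of the 21 member probe sets 20 passed the filter on low values. The other, 1 of the 3 for TGFBR1, lay between 2.57 and 2.96 on all arrays.

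Fibroblast markers were present in all groups, but 4 of 7 measured fell in culture, beside 24.2% of all genes. These were THY1 (13.88 to 11.99), DCN (14.98 to 13.34), LUM (14.02 to 13.52) and COL1A2 (9.49 to 9.05). VIM, the mesenchymal intermediate filament, read 15.62 in P0 and 15.57 in untreated P2 cells. The mean of the 7 was 12.19 to 12.23 on P0 arrays, 11.43 to 11.72 on untreated ones, 11.31 to 11.56 at 8 h and 11.23 to 11.38 at 24 h. Markers of other cells were present too, and in bulk RNA fewer cells of a type and less RNA per cell cannot be told apart. The mean of 16 measured endothelial markers was 6.67 to 6.88 on P0 arrays and 6.53, 6.78 and 5.26 on untreated P2 arrays 1, 2 and 3, and P2 arrays numbered 3 were the low ones at 8 h and 24 h as well. Endothelial KDR and FLT1 and macrophage ITGAM stayed under the background level on every array, whereas CDH5 read 10.79 on untreated array 2. The mean of 10 measured macrophage markers was 8.52 to 8.98 in P0 and 6.27 to 6.75 in untreated P2 cells. Immediate-early genes, a group induced by tissue dissociation among other stimuli, averaged 13.10 to 13.30 in P0 and 8.99 to 9.26 in untreated P2 cells over 9 measured genes. With TGF-β1 the ranges at 8 h and 24 h were 5.29 to 6.61 and 5.07 to 6.36 for the endothelial, 6.08 to 6.53 and 5.92 to 6.35 for the macrophage, and 9.08 to 9.24 and 9.10 to 9.28 for the immediate-early means. Of the markers on these lists ERG rose and CD14 fell at both times, and JUN and the fibroblast marker COL3A1 fell at 24 h.

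**Figure D1:**
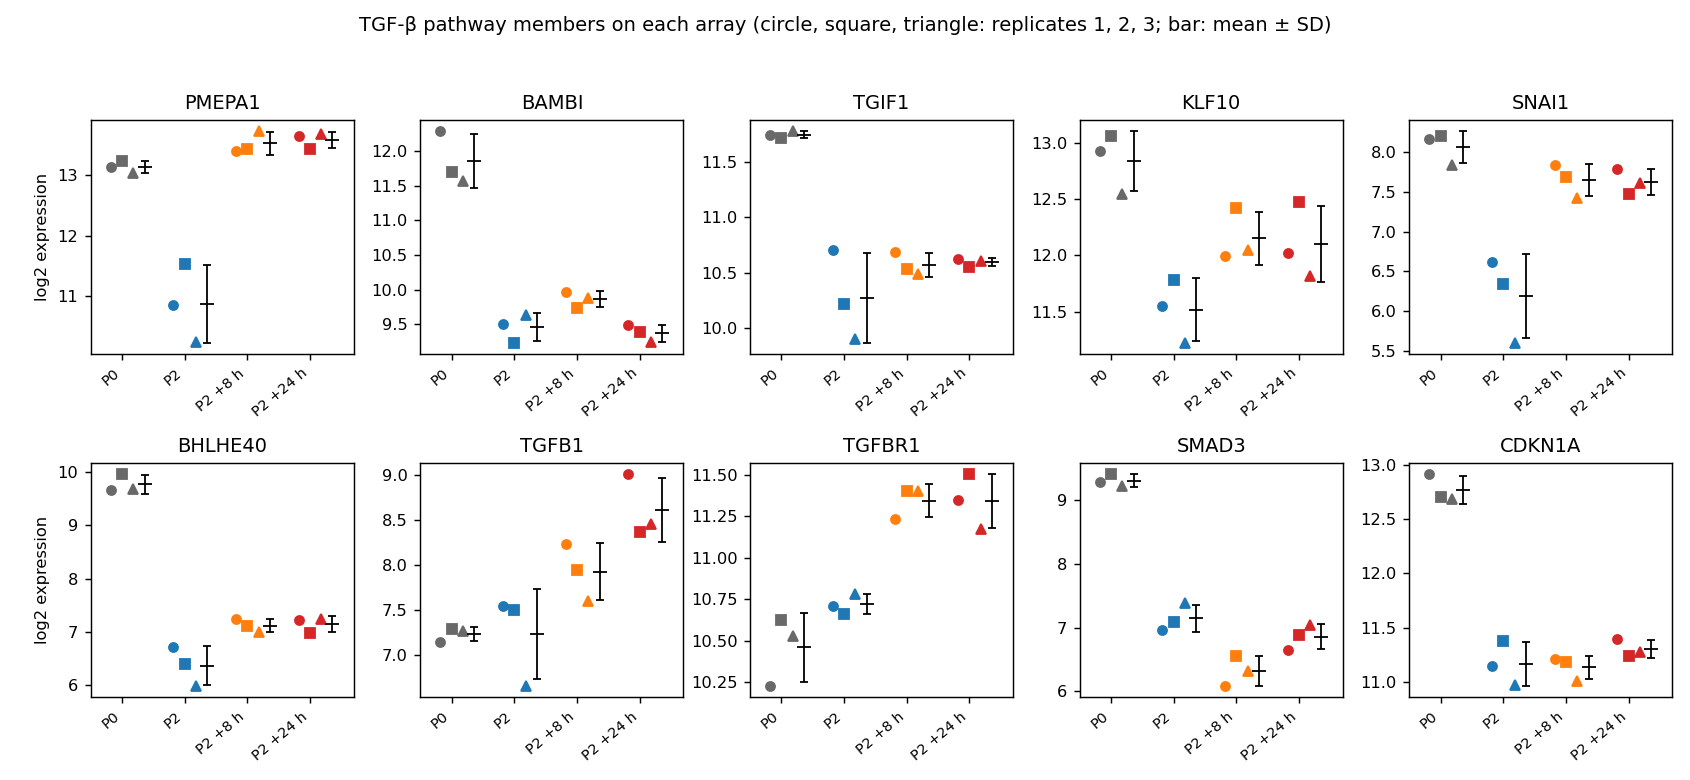
Log2 expression (vertical axes, a separate scale in each panel that does not start at 0) of the 10 members on each of 12 arrays, by group: fresh P0 cells, untreated P2 cells, and P2 cells with TGF-β1 for 8 h or 24 h. Circles, squares and triangles are replicates 1, 2 and 3, and bars are group means ± SD (n = 3). PMEPA1 is low only in untreated P2 cells (10.24 to 11.53), TGFB1 is highest on the 24 h arrays, and SMAD3 is lowest at 8 h (6.08 to 6.56).

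After 2 passages 8 of the 10 members were lower than in fresh cells and none was higher by limma, nor at an unadjusted p under 0.05 (0 of 10). The genes that fell encode SMAD3, the feedback inhibitors PMEPA1, BAMBI and TGIF1, the transcription factors KLF10, SNAI1 and BHLHE40, and the cell cycle inhibitor CDKN1A. The ligand TGFB1 and its type I receptor TGFBR1 did not pass. Among all genes 24.2% fell and 42.1% rose in this comparison, where the median log2 fold change was -1.74 for the members and 0.20 for all genes tested.

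With TGF-β1 the picture differed by gene. At 8 h PMEPA1, SNAI1, BHLHE40 and TGFBR1 had risen and SMAD3 had fallen, 4 and 1 of 10, beside 2.74% of all genes that rose and 2.84% that fell. At 24 h PMEPA1, SNAI1, BHLHE40, TGFBR1 and TGFB1 were above untreated cells, 5 of 10, and 0 were below by limma. Of all genes 4.42% rose and 5.67% fell at 24 h. At an unadjusted p under 0.05, 0 of the members were below as well, beside 829 of 6014 genes. The median log2 fold change of the members was 0.63 at 8 h and 0.60 at 24 h, against -0.01 over all genes at both times. Both treated groups were compared with the same 3 untreated arrays. The 5 calls at 8 h became 2 without untreated replicate 3, and 3 without untreated replicate 2 or without any 1 of the 8 h arrays. PMEPA1 and SNAI1 were called at both times with any 1 array left out.

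**Figure D2:**
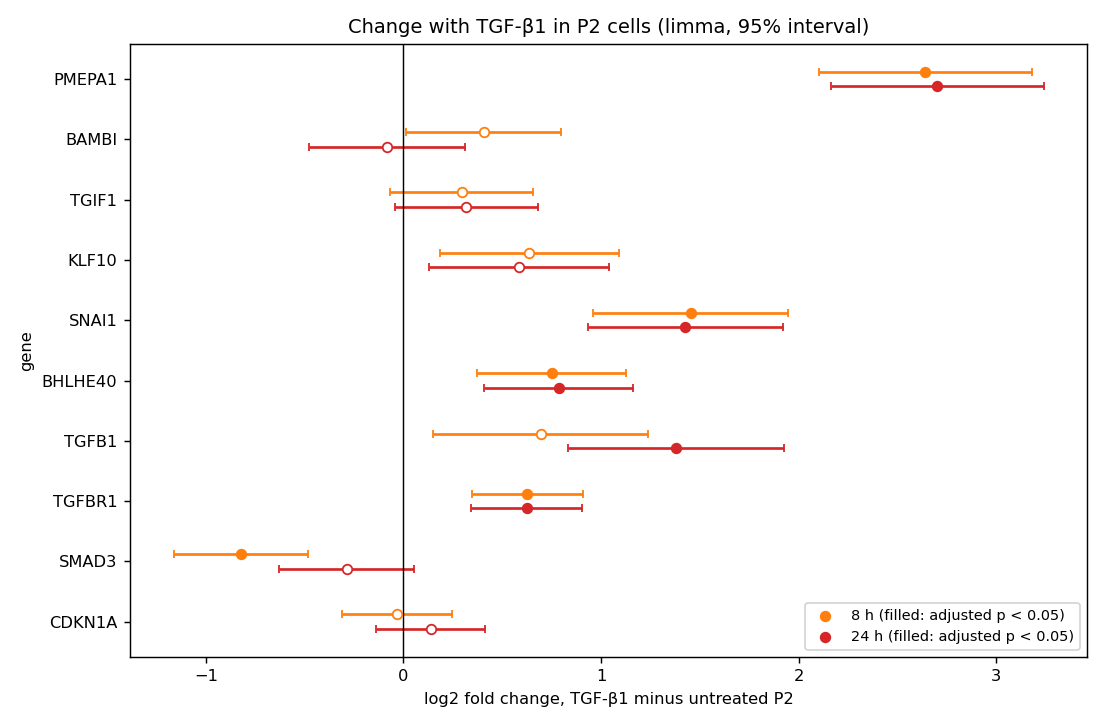
Log2 fold change (horizontal axis) of each member (vertical axis) with TGF-β1 for 8 h or 24 h against untreated P2 cells, with 95% intervals from limma and 3 arrays a group. Filled points passed an adjusted p of 0.05: PMEPA1 rose by 2.64 and 2.70, while SMAD3 is the 1 filled point left of 0, at -0.82 at 8 h.

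TGFB1 encodes the ligand itself. Its representative probe set read 7.15, 7.29 and 7.26 in P0 cells, 7.54, 7.50 and 6.65 in untreated P2 cells, 8.24, 7.95 and 7.60 at 8 h, and 9.02, 8.37 and 8.45 at 24 h. Each treated array lay above each untreated one, and the 24 h arrays lay above the 8 h arrays without overlap. TGFB1 rose 2.60-fold by 24 h (log2 fold change 1.38 ± 0.249, adjusted p = 0.00608) and was higher in 3 of 3 replicates. The 8 h change of 0.69 ± 0.249 did not pass (adjusted p = 0.156), but with the replicate number as a block in a fit of the 9 P2 arrays it did (adjusted p = 0.0313, against 0.0652 with the block in all 12 arrays). From 8 h to 24 h the level went from 7.93 ± 0.319 to 8.61 ± 0.353 (SD, n = 3), a difference of 0.68 with a 95% interval from 0.14 to 1.23 (adjusted p = 0.411). Untreated P2 and P0 cells had means of 7.23 in both groups, with a 95% interval of the difference from -0.54 to 0.55. The other TGFB1 probe set was called at 24 h as well (1.12 ± 0.241, adjusted p = 0.0143). At 8 h it changed by 0.45 ± 0.241 (adjusted p = 0.381), and its 8 h arrays overlapped both the untreated and the 24 h arrays.

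TGFBR1 is the type I receptor kinase that phosphorylates SMAD2 and SMAD3. Its level was 10.23, 10.62 and 10.53 in P0, 10.71, 10.66 and 10.78 in untreated P2, 11.23, 11.40 and 11.40 at 8 h, and 11.35, 11.50 and 11.18 at 24 h. All treated arrays were above all untreated ones, and the 8 h and 24 h arrays overlapped. The rise was 1.54-fold at 8 h (log2 fold change 0.63 ± 0.129, adjusted p = 0.0180) and 1.54-fold at 24 h (0.62 ± 0.129, adjusted p = 0.0115). That call at 8 h was lost when any 1 of 5 of the 6 arrays was left out, namely all untreated arrays (adjusted p = 0.0568, 0.0531 and 0.0502 without replicates 1, 2 and 3) and 8 h replicates 2 and 3 (0.0657 and 0.0662), while the fold change stayed between 0.60 and 0.66. The second TGFBR1 probe set, with an untreated mean of 5.83, changed by 0.55 ± 0.316 at 8 h (adjusted p = 0.427) and 0.76 ± 0.316 at 24 h (adjusted p = 0.176).

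SMAD3, the receptor-activated transcription factor of the pathway, was the member that fell both in culture and after 8 h of TGF-β1. It read 9.28, 9.41 and 9.21 in P0, 6.96, 7.09 and 7.38 in untreated P2, 6.08, 6.56 and 6.32 at 8 h, and 6.65, 6.88 and 7.04 at 24 h. The P0 arrays stood far above the rest, the 8 h arrays lay below every other array, and the 24 h arrays overlapped the untreated ones. SMAD3 fell 4.46-fold in culture (-2.16 ± 0.156, adjusted p = 2.51e-07) and a further 1.77-fold at 8 h (-0.82 ± 0.156, adjusted p = 0.0122). At 24 h the difference from untreated cells was -0.29 with a 95% interval from -0.63 to 0.05 (adjusted p = 0.311). Every replicate was higher at 24 h than at 8 h, by 0.56, 0.32 and 0.72 on the log2 scale, but the mean difference of 0.54 ± 0.156 did not pass (adjusted p = 0.269). Leaving out untreated replicate 3 (-0.71, adjusted p = 0.0550) or 8 h replicate 1 (-0.70, adjusted p = 0.0563) ended the call at 8 h.

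PMEPA1, a membrane adaptor that binds SMAD2 and SMAD3 and keeps them from the receptor, had the largest response of the members. Its representative probe set read 13.13, 13.23 and 13.03 in P0, 10.86, 11.53 and 10.24 in untreated P2, 13.39, 13.43 and 13.73 at 8 h, and 13.63, 13.43 and 13.67 at 24 h. Untreated arrays were low and spread out, and treated arrays were high, close together and above all P0 arrays. The fall in culture was 4.77-fold (-2.25 ± 0.247, adjusted p = 7.77e-06). With TGF-β1 it rose 6.24-fold at 8 h (2.64 ± 0.247, adjusted p = 0.000564) and 6.50-fold at 24 h (2.70 ± 0.247, adjusted p = 0.000147). By size of rise it ranked 2 of 6014 genes at 8 h and 4 at 24 h. The SD was 0.643 in untreated cells, 0.184 at 8 h and 0.128 at 24 h (n = 3 each).

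Replicate-wise, PMEPA1 rose by 2.53, 1.90 and 3.49 at 8 h and by 2.77, 1.90 and 3.43 at 24 h in replicates 1, 2 and 3. Replicate 3 had the lowest untreated level and the largest rise. It is also the replicate with the low endothelial markers, whose part in the result was not tested. With the P2 arrays numbered 3 left out, PMEPA1 still rose by 2.22 at 8 h (adjusted p = 0.00311) and 2.34 at 24 h (adjusted p = 0.000889).

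**Figure D3:**
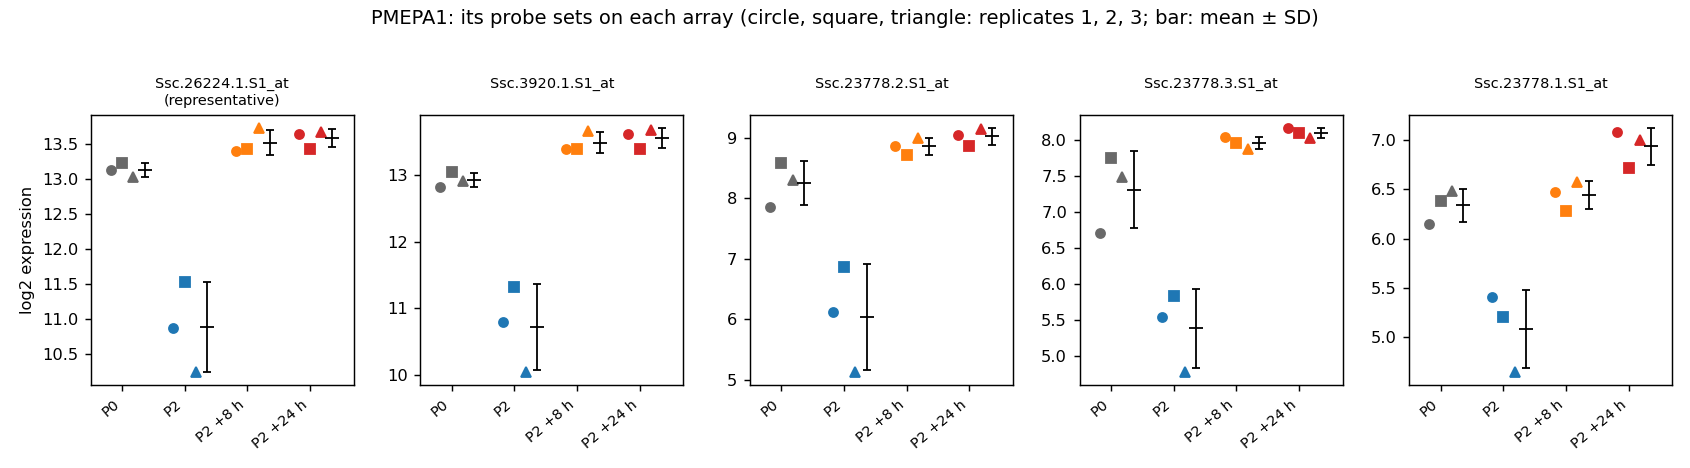
Log2 expression (vertical axes, a separate scale in each panel that does not start at 0) of the 5 PMEPA1 probe sets on each array, by group, with replicates 1, 2 and 3 as circles, squares and triangles and means ± SD as bars (n = 3). All 5 are lowest in untreated P2 cells, and untreated replicate 3 is the lowest array of each.

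All 5 PMEPA1 probe sets passed in culture and at both times of TGF-β1. Their log2 fold changes ran from 1.36 to 2.82 at 8 h and from 1.85 to 2.99 at 24 h. The smallest changes belonged to a probe set whose untreated mean of 5.08 was near the background of 4.58. Against P0 the probe sets were less uniform. At 24 h 3 of the 5 were higher than in fresh cells, and the representative was not (0.45, 95% interval from -0.09 to 0.99, adjusted p = 0.133).

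BAMBI is a decoy receptor that resembles a type I receptor without its kinase. It read 12.30, 11.70 and 11.56 in P0, 9.50, 9.23 and 9.63 in untreated P2, 9.97, 9.74 and 9.87 at 8 h, and 9.48, 9.39 and 9.24 at 24 h. All P2 arrays were far below all P0 arrays, and the 8 h arrays were above both other P2 groups. BAMBI fell 5.28-fold in culture (-2.40 ± 0.180, adjusted p = 3.44e-07). Its 8 h change of 0.41 ± 0.180 did not pass (adjusted p = 0.270), nor with the replicate block in the P2 arrays (adjusted p = 0.0549). BAMBI was higher at 8 h in 3 of 3 replicates. From 8 h to 24 h the level was lower by 0.48, 0.35 and 0.63 in replicates 1, 2 and 3, a mean difference of -0.49 with a 95% interval from -0.88 to -0.10 (adjusted p = 0.414). The second BAMBI probe set gave 0.43 ± 0.211 at 8 h and -0.04 ± 0.211 at 24 h against untreated cells, neither of which passed (adjusted p = 0.324 and 0.941).

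**Figure D4:**
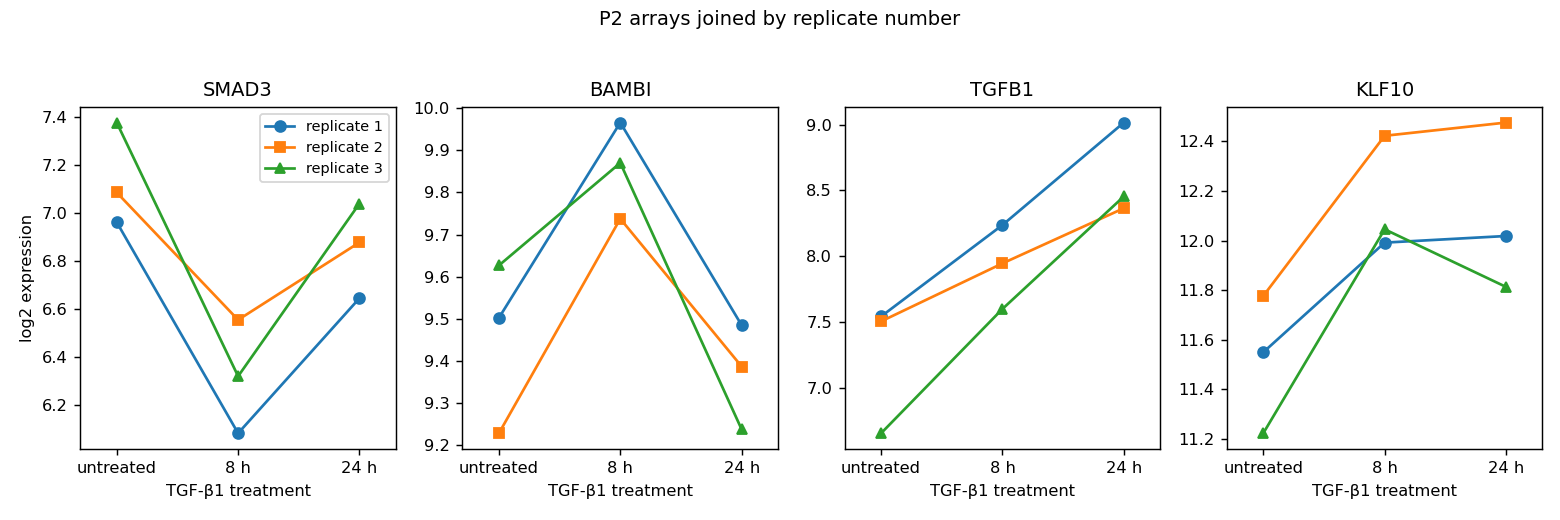
Log2 expression (vertical axes, a separate scale in each panel that does not start at 0) of SMAD3, BAMBI, TGFB1 and KLF10 on the 9 P2 arrays against TGF-β1 treatment (untreated, 8 h, 24 h), with lines joining arrays of the same replicate number. In all 3 replicates SMAD3 is lowest at 8 h, BAMBI is highest at 8 h and TGFB1 is highest at 24 h, while KLF10 lies above its untreated level at both times. No difference between 8 h and 24 h passed by limma for these genes.

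TGIF1, a homeodomain corepressor of SMAD complexes, read 11.74, 11.71 and 11.78 in P0, 10.71, 10.21 and 9.90 in untreated P2, 10.69, 10.53 and 10.48 at 8 h, and 10.62, 10.55 and 10.61 at 24 h. P0 arrays were above all others, and treated arrays overlapped the untreated ones because untreated replicate 1 was as high as they were. The fall in culture was 2.76-fold (-1.47 ± 0.166, adjusted p = 1.0e-05). With TGF-β1 the changes of 0.29 at 8 h (95% interval from -0.07 to 0.66, adjusted p = 0.412) and 0.32 at 24 h (-0.04 to 0.68, adjusted p = 0.289) did not pass. Without untreated replicate 1 the 24 h change was 0.53 and passed (adjusted p = 0.0364). The other TGIF1 probe set gave 0.41 ± 0.120 at 24 h (adjusted p = 0.0566).

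KLF10 is a zinc finger factor first described as a TGF-β-inducible early gene. Its values were 12.92, 13.06 and 12.54 in P0, 11.55, 11.78 and 11.22 in untreated P2, 11.99, 12.42 and 12.05 at 8 h, and 12.02, 12.48 and 11.81 at 24 h. The groups with and without TGF-β1 did not overlap, and both lay below P0. KLF10 fell 2.50-fold in culture (-1.32 ± 0.208, adjusted p = 0.000152). Its changes with TGF-β1, 0.64 ± 0.208 at 8 h (adjusted p = 0.115) and 0.59 ± 0.208 at 24 h (adjusted p = 0.111), did not pass in the fit of group means. The replicates differed in level and less in change: the 3 rises were 0.44, 0.65 and 0.82 at 8 h and 0.47, 0.70 and 0.59 at 24 h. With the replicate number as a block in the P2 arrays KLF10 was called at both times, with adjusted p = 0.00839 at 8 h and 0.00690 at 24 h.

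SNAI1, a repressor of epithelial genes in epithelial-mesenchymal transition, read 8.16, 8.19 and 7.83 in P0, 6.62, 6.35 and 5.61 in untreated P2, 7.83, 7.68 and 7.42 at 8 h, and 7.79, 7.46 and 7.61 at 24 h. Untreated arrays were below all others, and treated arrays were just below the P0 arrays. It fell 3.65-fold in culture (-1.87 ± 0.225, adjusted p = 1.73e-05) and rose 2.74-fold at 8 h (1.45 ± 0.225, adjusted p = 0.00522) and 2.69-fold at 24 h (1.43 ± 0.225, adjusted p = 0.00302). Its rank by size of rise was 15 of 6014 genes at 8 h and 31 at 24 h. The second SNAI1 probe set changed by 0.63 ± 0.169 at 8 h (adjusted p = 0.0539) and 0.48 ± 0.169 at 24 h (adjusted p = 0.105). Untreated replicate 3 was again the lowest, and without the P2 arrays numbered 3 the representative rose by 1.27 at 8 h (adjusted p = 0.0135) and 1.14 at 24 h (adjusted p = 0.00925).

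BHLHE40, a basic helix-loop-helix repressor of the circadian and hypoxia responses, had the largest fall of the members in culture. It read 9.66, 9.96 and 9.68 in P0, 6.72, 6.40 and 5.99 in untreated P2, 7.24, 7.11 and 7.00 at 8 h, and 7.23, 6.98 and 7.24 at 24 h. The P0 arrays were far above all P2 arrays, and treated arrays were above untreated ones. The fall was 10.6-fold (-3.40 ± 0.173, adjusted p = 1.64e-08). With TGF-β1 BHLHE40 rose 1.68-fold at 8 h (0.75 ± 0.173, adjusted p = 0.0287) and 1.72-fold at 24 h (0.78 ± 0.173, adjusted p = 0.0164). Leaving out 1 array ended the 8 h call in 5 of 6 cases, all but untreated replicate 1, with adjusted p up to 0.112, and it ended the 24 h call without untreated replicate 3 (adjusted p = 0.0568) or 24 h replicate 1 (0.0599). With the P2 arrays numbered 3 left out the changes were 0.61 and 0.55, and neither passed (adjusted p = 0.135 and 0.120). The other BHLHE40 probe set had group means from 3.82 to 4.26, all under the background level, and is not read here.

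CDKN1A, the cyclin-dependent kinase inhibitor p21 that TGF-β induces in epithelial cells, read 12.92, 12.70 and 12.69 in P0, 11.15, 11.38 and 10.97 in untreated P2, 11.21, 11.18 and 11.01 at 8 h, and 11.39, 11.24 and 11.27 at 24 h. All P2 arrays lay below P0, the untreated arrays spanned the treated ones but for 24 h replicate 1, and the 8 h and 24 h arrays did not overlap. The fall in culture was 3.05-fold (-1.61 ± 0.126, adjusted p = 5.16e-07). TGF-β1 changed it by -0.03 at 8 h (95% interval from -0.31 to 0.24, adjusted p = 0.946) and 0.14 at 24 h (-0.14 to 0.41, adjusted p = 0.585), so that changes over 0.41 on the log2 scale lie outside both intervals.

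Between 8 h and 24 h none of the 10 members was called by limma, beside 0.15% of all genes that rose and 0.133% that fell. At an unadjusted p under 0.05 there were 3, beside 552 of 6014 genes: TGFB1 and SMAD3 higher at 24 h and BAMBI lower. With the replicate block in the P2 arrays these 3 had adjusted p = 0.0763, 0.0541 and 0.0713, in that order. The intervals of PMEPA1 (-0.48 to 0.60), SNAI1 (-0.52 to 0.47), BHLHE40 (-0.34 to 0.41) and TGFBR1 (-0.28 to 0.28) bound how far these 4 could have moved between the times.

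**Figure D5:**
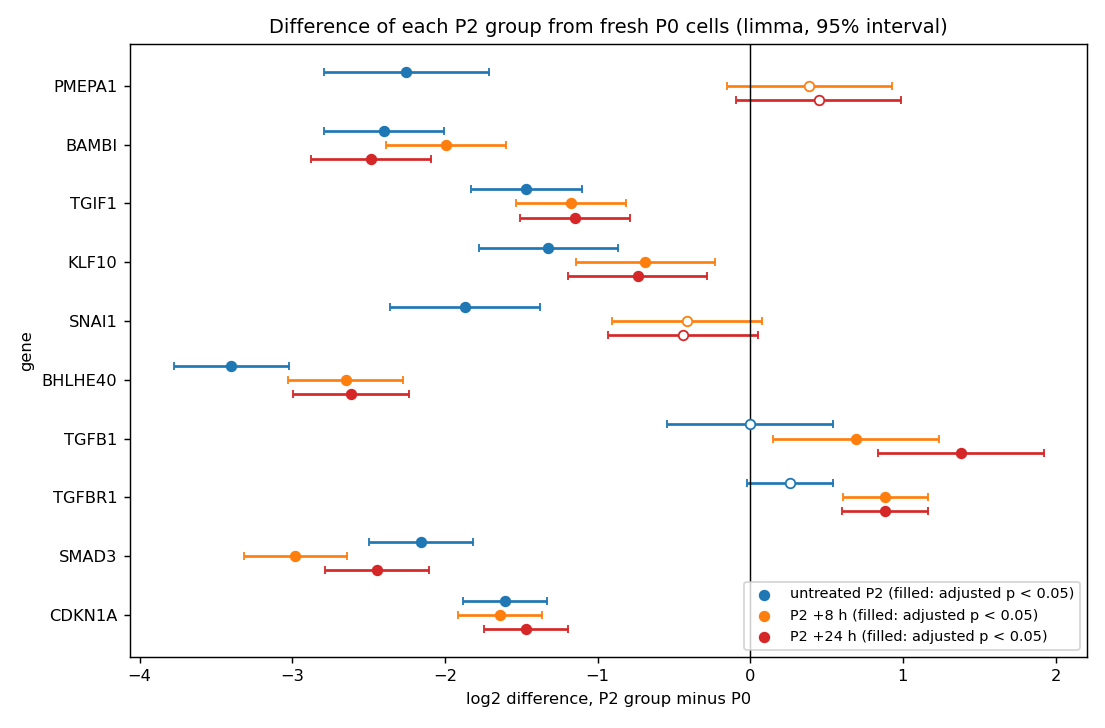
Log2 difference of each P2 group from fresh P0 cells (horizontal axis) for each member (vertical axis), with 95% intervals from limma and 3 arrays a group, filled where the adjusted p was under 0.05. BHLHE40, SMAD3 and BAMBI stay at least 1.99 below P0 in every P2 group, PMEPA1 and SNAI1 pass in untreated P2 cells and not in treated ones, and TGFB1 and TGFBR1 lie above P0 after treatment.

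Set against fresh cells, the treated groups divided the members. At 8 h 2 were higher than in P0 and 6 lower, and the same counts held at 24 h. Among all genes 42.3% were higher and 25.4% lower at 8 h, and 42.4% higher and 26.1% lower at 24 h. TGFBR1 (0.89 ± 0.129 at 8 h, 0.88 ± 0.129 at 24 h) and TGFB1 (0.69 ± 0.249 and 1.38 ± 0.249) were the 2 above P0. The TGFB1 call at 8 h (adjusted p = 0.0292) was lost without 8 h replicate 1 (0.115) or 2 (0.0655) and without P0 replicate 1 (0.0782), 2 (0.0556) or 3 (0.0573). The other TGFB1 probe set did not pass at 8 h against P0 (0.08 ± 0.241, adjusted p = 0.799) and did at 24 h (0.75 ± 0.241, adjusted p = 0.0169). BAMBI, TGIF1, KLF10, BHLHE40, SMAD3 and CDKN1A were below P0 at both times, with KLF10 nearest (-0.69 at 8 h, -0.74 at 24 h) and SMAD3 (-2.98 at 8 h) and BHLHE40 (-2.61 at 24 h) farthest. For SNAI1 the differences of -0.42 at 8 h (adjusted p = 0.130) and -0.44 at 24 h (adjusted p = 0.107) did not pass, but did with a replicate block in all 12 arrays (adjusted p = 0.0464 and 0.0355). P0 arrays did not deviate together with the P2 arrays of their number. The second SNAI1 probe set was lower than in P0 at both times (-0.67 ± 0.169, adjusted p = 0.00414, and -0.82 ± 0.169, adjusted p = 0.00106). The KLF10 call at 8 h against P0 (adjusted p = 0.0125) was lost without P0 replicate 2 (-0.58, adjusted p = 0.0537).

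In culture 9 of 9 measured immediate-early genes fell as well, FOS from 14.67 to 7.67 and ATF3 from 13.36 to 7.29. Of 10 measured macrophage markers 9 fell, CD163 from 10.95 to 5.41. On the other marker lists 4 of 7 fibroblast and 3 of 16 endothelial genes fell, and among all genes 24.2% did. The part of any of these lists in the lower member levels of P2 cells was not tested.

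Of 88 other pathway gene symbols listed by role, 40 had a tested probe set of their own. Some genes were listed under more than 1 symbol, such as CTGF and CCN2. In culture 12 of the 40 rose and 15 fell, beside 42.1% and 24.2% of all genes. The 40 and the 12 that rose include TRAP1, whose symbol is that of a mitochondrial chaperone. At 8 h 5 rose and 0 fell by limma, beside 2.74% and 2.84% of all genes. At an unadjusted p under 0.05 there were 10 up and 3 down, beside 530 up and 609 down of 6014 genes. At 24 h 11 rose and 2 fell, beside 4.42% and 5.67%. With the replicate block in the P2 arrays 10 rose and 2 fell at 8 h, beside 6.15% and 8.03% of all genes in that fit, and 14 rose and 5 fell at 24 h, beside 10.1% and 13% of all genes. No call among the 40 was lost with that block, and 7 were gained at 8 h and 6 at 24 h. By limma 7 of the 40 had an unadjusted p under 0.05 between 8 h and 24 h, beside 552 of 6014 genes. Of the 40, 1 was called, LIF, which rose 2.58-fold (1.37 ± 0.232, adjusted p = 0.0406). That call was lost without 24 h replicate 1 or 8 h replicate 1 or 2. The 13 calls at 24 h became 7 without untreated replicate 3 or 24 h replicate 2, and 8 without 24 h replicate 1. The median log2 fold change of the 40 was 0.08 in culture, 0.13 at 8 h and 0.15 at 24 h. Over all genes tested it was 0.20, -0.01 and -0.01. TGFBR2, SMAD2, SMAD7 and SKIL were among those not analysed here.

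Among 12 ligands and regulators of ligand access, 3 rose and 5 fell in culture, 1 rose at 8 h, and 4 rose and 1 fell at 24 h. For this and the other roles below, the shares of all genes that rose and fell were 42.1% and 24.2% in culture. They were 2.74% and 2.84% at 8 h, and 4.42% and 5.67% at 24 h. Of the 3 that rose in culture INHBB stayed under the background level. FSTL3, a secreted activin antagonist, fell in culture (-0.94 ± 0.169) and rose at 8 h (1.09 ± 0.169, adjusted p = 0.00530) and 24 h (1.32 ± 0.169, adjusted p = 0.000874). Its relative follistatin, FST, fell in culture (-0.67 ± 0.209) and again at 24 h (-1.13 ± 0.209, adjusted p = 0.00679). The integrin subunit ITGAV, whose dimers release active TGF-β from its latent complex, rose at 24 h (1.01 ± 0.275, adjusted p = 0.0430), as did THBS1, an activator of latent TGF-β (0.66 ± 0.159), and the ligand TGFB2 (0.44 ± 0.117, adjusted p = 0.0397). With the block ITGAV (0.45, adjusted p = 0.0301) and THBS1 (0.58, adjusted p = 0.0113) were called at 8 h too, and DCN fell at 24 h (-0.28, adjusted p = 0.0493). Between the times the block added ITGAV (0.56, adjusted p = 0.0392), the ligand TGFB3 (0.89, adjusted p = 0.0371) and the receptor ACVR1B (-1.003, adjusted p = 0.0277). In culture the proteoglycan DCN, which binds TGF-β, fell by 1.64, ITGB5 by 1.15 and INHBA, the activin A subunit, by 1.11 on the log2 scale.

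Of 7 other receptors and co-receptors, 2 rose and 1 fell in culture, beside 42.1% and 24.2% of all genes. By limma 0 were called at 8 h, and 1 rose and 1 fell at 24 h, beside 4.42% and 5.67%. At an unadjusted p under 0.05 there were 2 at 8 h, beside 1139 of 6014 genes: ENG (0.64 ± 0.270) and ACVR2A (0.60 ± 0.199). With the block both were called, at 8 h (adjusted p = 0.0171 and 0.0156) and at 24 h (0.00945 and 0.00834). The receptor that fell in culture, TGFBR3, was under the background level in both groups. ACVR1B, a type I receptor for activin, rose in culture (0.57 ± 0.194) and fell at 24 h (-0.88 ± 0.194, adjusted p = 0.0160), and ACVR1, a type I receptor used by bone morphogenetic proteins, rose (0.56 ± 0.138, adjusted p = 0.0281). The SMAD list had 3 tested genes, of which SMAD1 and SMAD4 were not called in culture, at either time or between the times in the fit of group means. With the block SMAD1 fell at 8 h (-0.38, adjusted p = 0.0293). The third, TRAP1, rose by 1.11 in culture, and this symbol belongs to a mitochondrial chaperone, not to the receptor adaptor of like name. Of 3 genes of receptor inhibition and turnover, FKBP1A, which binds the type I receptor (1.24 ± 0.112), and STRAP (0.87 ± 0.114) rose in culture, and WWP1, a ubiquitin ligase, rose at 24 h (0.43 ± 0.113, adjusted p = 0.0365).

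Of 11 other induced targets 3 rose and 6 fell in culture, beside 42.1% and 24.2% of all genes. For FN1, 1 of the 6 (-0.37 ± 0.112), another probe set was called the other way. At 8 h 4 rose and at 24 h 5, beside 2.74% and 4.42% of all genes. At either time 0 fell by limma or at an unadjusted p under 0.05. The largest falls in culture were those of PTHLH (-4.26), TIMP3, a metalloproteinase inhibitor (-3.48), SHAS2 (-2.19) and LMCD1 (-1.79). With the block LMCD1 also rose at 8 h (0.48, adjusted p = 0.0365) and TIMP3 fell at 24 h (-0.77, adjusted p = 0.00280). LIF, a cytokine of the IL6 family, had an untreated mean of 4.11, under the background, and rose at least 4.44-fold at 8 h and at least 11.5-fold at 24 h, reckoned from the background level. PTHLH, a parathyroid-hormone-related peptide (2.04 ± 0.182 at 8 h and 2.40 ± 0.182 at 24 h), SHAS2, a hyaluronan synthase (1.97 ± 0.191 and 2.15 ± 0.191), and VEGFA (1.25 ± 0.216 and 1.64 ± 0.216) rose at both times. The contractile targets ACTA2 (-0.01 at 8 h, -0.08 at 24 h), TAGLN (0.12 and 0.06) and TPM1 (0.21 and 0.15) did not pass with TGF-β1, having risen in culture by 2.89, 0.99 and 3.14. Their untreated P2 means were 15.33, 14.78 and 15.29, and the highest value on any array was 15.95. Whether a further rise could register at such levels was not tested. TGF-β is known to repress MYC, ID1, ID2 and ID3 in other cells. In culture 3 of these 4 fell and ID3 rose, and by limma 0 were called at 8 h or 24 h. At an unadjusted p under 0.05 there were 1 (down) at 8 h and 2 (1 up and 1 down) at 24 h. Among all 6014 genes these counts were 1139 and 1552. ID2 had means of 3.51 in untreated P2 cells, 3.53 at 8 h and 3.27 at 24 h. All lay under the background level, so a fall of ID2 with TGF-β1 could not be seen. MYC, which is also on the immediate-early list, was higher at 24 h by 0.47 ± 0.201 (adjusted p = 0.186, and 0.0413 with the block). ID1, an inhibitor of basic helix-loop-helix factors, read -1.52 at 8 h and -1.48 at 24 h against untreated cells without passing (adjusted p = 0.0769 and 0.0621), and passed at both times with the block (0.00439 and 0.00250).

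The genes most like a member over the 9 P2 arrays, by Pearson's r, were taken for the 6 members called in a comparison of P2 groups. These arrays share treatment and replicate number, and r is given as a description. For PMEPA1 they were LOC100514494 (0.99), ALDH18A1 (0.98) and SRM (0.98). SNAI1 and BHLHE40 were among each other's nearest 3 of all genes (0.99), and both had ACVR2A (0.99 for each) and ZFAND5 (0.99 and 0.98) as the others. For TGFB1 the nearest were NAA10 (0.98), FAM114A1 (0.97) and HTRA1 (0.97), for TGFBR1 RPL26L1 (0.97), IVNS1ABP (0.96) and PICALM (0.96), and for SMAD3 RSRP1 (0.97), TXNRD1 (0.94) and WIPF1 (0.94).

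Across the untreated P2 arrays, replicate 3 had the lowest level of 7 members and the highest of the other 3, BAMBI, TGFBR1 and SMAD3. How many of all genes were lowest or highest on that array was not counted, so whether this is particular to the members is not known. The 7 lowest were PMEPA1, TGIF1, KLF10, SNAI1, BHLHE40, TGFB1 and CDKN1A. Untreated replicate 3 is the array with the low endothelial mean of 5.26, and the part of endothelial cells in the member levels was not tested.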

How the data were processed

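Total RNA of 12 samples was labelled with the GeneChip 3' IVT express kit and hybridised to Affymetrix porcine arrays, per the labels' protocols. The authors deposited log2 values per probe set, for which the submitters' processing notes name GCRMA without a version. No source used here gives other steps or scan batches. GCRMA makes array distributions alike, so a shift common to most genes is not seen. Values were used as deposited: array medians ran from 5.87 to 5.94. Of 23999 probe sets 64 reporter controls were left out, 10069 had 1 symbol, 198 several and 13732 none in the platform annotation. All 10 member gene IDs matched the same symbol in RefSeq (Sscrofa11.1). A probe set was tested if its value was over 4 on at least 3 arrays. One limma 3.58.1 fit (R 4.3.3, lmFit and eBayes, two-sided, 8 residual and 3.75 prior degrees of freedom) gave all comparisons of the 4 group means.

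P2 arrays with the same replicate number deviated together from their group means (r 0.348 to 0.679 over 9 pairs, against -0.513 to 0.0796 over 18 pairs of different numbers), and P0 arrays did not (-0.0916 to 0.0158). The numbers were therefore taken to pair the P2 samples, from the data and not from a label, and blocked values are given where they change a call of a member or of a pathway gene named. The labels call replicates biological and do not say that each is a separate animal, so p-values measure the spread between these samples.

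The text names all members, up to 4 called genes per role and comparison of the listed pathway genes, and the 3 genes most correlated with each member called among P2 groups. Genes outside this rule, such as TAGLN, FN1 and the uncalled values of ACTA2, TPM1, ENG, ACVR2A, MYC and ID1, and those named for a blocked call, were named after their values were seen. Alternatives were no filter and a stricter one, quantile normalization, arrays centred on their medians, an intensity trend with a robust prior, only the groups compared, the replicate block, all probe sets, and leaving out arrays. Members, lists and rules were chosen with earlier results of these data known. The number of arrays limits the precision. No sequences of the members were used here.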

Additional observations from a re-analysis of the deposited data

How the results depend on the processing

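No alternative turned the direction of a call on a member. Of 570 log2 fold changes of single members under alternatives other than leaving out 1 array, 543 kept their side of the threshold, 15 lost a call and 12 gained one. Of 360 with 1 array left out, 339 kept it, 20 lost a call and 1 gained one. At 8 h against untreated cells the number of members called was 5, with 3 when only those 2 groups were fitted, 2 with the P2 arrays numbered 3 left out together, and 2 to 4 with 1 array left out. It was 7 with the replicate block in the P2 arrays and 6 with it in all 12. In the blocked fit of the P2 arrays 6.15% of all genes rose and 8.03% fell at 8 h. In the main fit these shares were 2.74% and 2.84%. With all probe sets counted instead of genes, 15 of 20 member probe sets were called in culture (all lower, beside 33.6% of all probe sets called higher and 25.8% lower), 9 at 8 h (8 up, 1 down, beside 2.53% and 2.53%) and 10 at 24 h (all up, beside 4.27% and 4.22%). Against P0 they were 13 at 8 h (3 up, 10 down, beside 34.6% and 26.7%) and 17 at 24 h (7 up, 10 down, beside 35.6% and 26.9%).

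For the other pathway genes at 8 h, 5 became 9 with all probe sets counted and 12 with the replicate block in the P2 arrays. At 24 h 13 became 19 with that block and 14 with it in all 12 arrays, 8 in a fit of the 2 groups alone and 7 to 13 with 1 array left out. Between the times 1 became 3 with an intensity trend or a replicate block in all arrays, 4 with the block in the P2 arrays, 2 after quantile normalization or a filter at log2 6, 0 without a filter or in a fit of the 2 groups alone, and 0 to 1 with 1 array left out. The replicate block changed no call of a member beyond those given above for KLF10, TGFB1 and SNAI1. Causes were not tested. The second BHLHE40 probe set was under the background level in all groups.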
